A study of Homo sapiens with 2 samples.

Results

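Keratins are the intermediate filament proteins of epithelial cells. Every filament is built from pairs of a type I and a type II keratin, so the genes of both types are used together. Simple epithelia such as the lining of the gut carry KRT8, KRT18, KRT19 and KRT20. Ducts and glands add KRT7, while KRT15, KRT17 and KRT6B belong to basal, hair follicle or wounded squamous epithelium. The 10 keratin genes described here were KRT7, KRT8, KRT80 and KRT6B of type II, and KRT15, KRT17, KRT18, KRT19, KRT20 and KRT23 of type I. Members were all probe sets annotated to 1 gene that is one of the 10. There were 12 such probe sets for 8 of the genes, among 54675 on the array. KRT6B and KRT17 had no probe set named to them alone and are not analysed here.

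The cells were HT-29, an established human colorectal adenocarcinoma line grown as a bulk culture. The baseline sample was transfected with siLuc, whose target, firefly luciferase, is not a gene of these cells. The other was transfected with siIFITM1, which targets the interferon-induced membrane protein gene IFITM1. RNA was taken 72 h later, and each sample was read on 1 array. With 1 array per siRNA there is no spread between replicates, no test and no p-value, and every value below is a single measurement.

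The values are MAS5 signals on a linear scale, and each log2 ratio is siIFITM1 over siLuc. Where several probe sets named a gene, the brightest of them on average stood for it. A mean signal of 57.4, the median over all probe sets, served as the filter, and 12225 of 19775 genes passed it. Genes at or above a mean signal of 393, the 75th percentile, are called brighter and the others past the filter dimmer. Ratios were read beside how far several probe sets of 1 gene disagreed, an SD of 0.193 on the log2 scale for brighter and 0.496 for dimmer probe sets. It reflects disagreement between probe sets on the same arrays and covers no variation between cultures. The signal of the siRNA's target, IFITM1, went from 640 to 237. Its relatives IFITM2 (from 1177 to 481) and IFITM3 (from 1525 to 490) were lower too, and all 3 were read by probe sets with shared probes, so this check is not specific to IFITM1. Among markers of colorectal epithelium other than the listed keratins, 5 of 8 passed the filter, and all 5 were brighter genes. CDX1, CDX2 and GPA33, which mark intestinal cells, failed the filter. Of the markers of squamous basal cells, the 3 measured (KRT5, KRT14 and DSG3) were all below the filter, with summed signals of 63.8 with siLuc and 70.7 with siIFITM1. For leukocytes and blood, 4 of 6 measured markers passed the filter, with medians over the 6 of 163 and 159. LYZ, which some gut epithelial cells also express, was the single brighter gene of that list. For fibroblasts and endothelium 4 of 8 passed, none of them brighter, with medians over the 8 of 57.4 and 52.2. LUM, a matrix proteoglycan of fibroblasts, was the member past the 2-fold line, from 132 to 386 (log2 ratio 1.54). Its other probe set went from 19.5 to 72.6 and failed the filter. LUM was a dimmer gene, and 7.87% of all dimmer genes were 2-fold apart.

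None of the 8 keratin genes was 2-fold apart between the arrays, where 3.03% of all genes past the filter and 0.269% of the brighter genes were. KRT80 had the largest ratio of the 8 genes at 0.60 and KRT20 was second at 0.36, both higher with siIFITM1. The other 6 genes lay between -0.08 and 0.02. The median over the 8 was -0.04, beside -0.02 over all 12225 genes. By sign, 3 were above 0 and 5 below, beside 47.4% above 0 among all genes past the filter. The split of the 8 became 6 above and 2 below after quantile normalization and 5 and 3 after removal of a loess trend on signal. The genes that changed sign, KRT8, KRT15 and KRT18, had ratios close to 0 in either case. In bulk RNA, fewer cells of a type and less RNA per cell cannot be told apart.

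**Figure D1:**
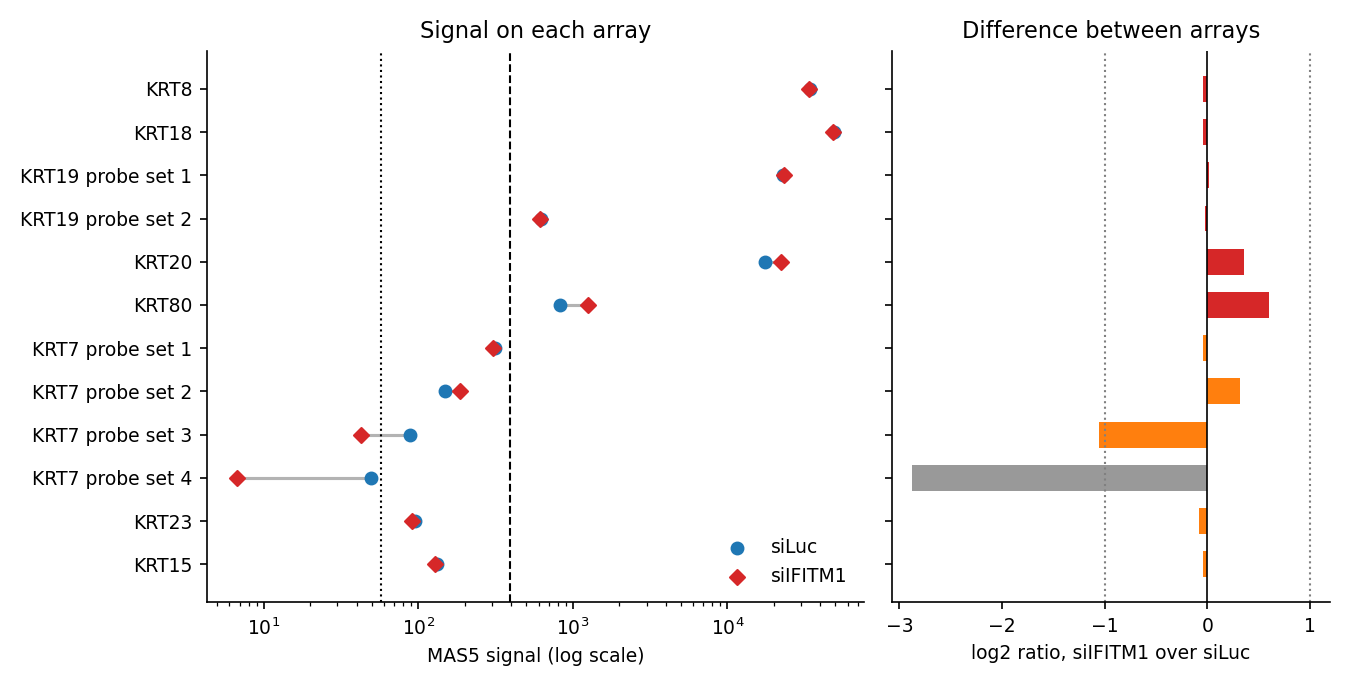
Left, MAS5 signal of each of the 12 keratin probe sets on the siLuc array (circles) and the siIFITM1 array (diamonds), on a log axis, with the filter (57.4, dotted) and the start of the brighter class (393, dashed). Right, log2 ratio of siIFITM1 over siLuc for the same probe sets, coloured red for brighter, orange for dimmer and grey for below the filter, with dotted lines at 2-fold. KRT20 and KRT80 stand to the right of 0, and the 4 KRT7 probe sets point both ways.

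Promoter sequence is shown for KRT20, a bright keratin with a higher signal under siIFITM1, and for KRT8, a bright keratin whose signals were close on both arrays. These were the 2 of 10 members with an entry in the RefSeq promoter table of GRCh38.p14. Each sequence is the 250 bases before the start given in that entry, read 5′ to 3′ on the gene's minus strand. The windows are chr17:40885243-40885492 for KRT20 and chr12:52926470-52926719 for KRT8. A gene can have more than 1 start, and whether the transcripts measured here begin at these was not tested. Capitals mark a motif match.
KRT20: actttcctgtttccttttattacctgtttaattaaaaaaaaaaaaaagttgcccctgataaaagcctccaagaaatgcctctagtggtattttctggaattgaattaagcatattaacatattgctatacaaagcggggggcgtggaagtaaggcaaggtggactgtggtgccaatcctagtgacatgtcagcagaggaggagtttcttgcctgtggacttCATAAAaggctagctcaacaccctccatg
KRT8: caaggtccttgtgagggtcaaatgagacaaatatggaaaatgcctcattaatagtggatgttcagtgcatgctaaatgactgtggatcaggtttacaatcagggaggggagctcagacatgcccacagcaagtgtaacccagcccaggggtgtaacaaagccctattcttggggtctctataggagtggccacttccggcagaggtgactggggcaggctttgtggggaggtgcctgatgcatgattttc
Both strands were searched for TATAAA (the TATA box), TTTATG (a core bound by CDX factors of the intestine), TGANTCA (AP-1) and GGGCGG (Sp1). The KRT20 window held 1 match, TTTATG on the reverse strand, at 29 to 24 bases before the start. On the printed strand this stretch reads CATAAA, which differs from TATAAA in 1 letter. Variants of the TATA box were not searched. Among 35116 promoter windows of this length 9.64% held that motif, 10.7% held TATAAA, 6.57% TGANTCA and 42.6% GGGCGG. The KRT8 window held no match to any of the 4. G and C made up 41.2% of the KRT20 window and 50.4% of the KRT8 window. A match is a string of letters and does not show a bound factor.

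KRT8 and KRT18 form the first keratin pair of simple epithelium, and their genes lie next to each other. The KRT8 signal was 34468 with siLuc and 33603 with siIFITM1, a log2 ratio of -0.04. The KRT18 signal was 49185 with siLuc and 47953 with siIFITM1, also a ratio of -0.04. Each gene thus kept 97.5% of its baseline signal, and both ratios were well inside the SD of 0.193 between probe sets of the same gene. These signals lie near the top of the scale, since the highest signal on the arrays was 58127 with siLuc and 53416 with siIFITM1. Whether saturation narrows differences there was not tested. Both genes were read by probe sets whose IDs end in _x_at, a mark of probes shared with other transcripts. The RefSeq gene table lists 52 pseudogenes named after KRT8 and 68 named after KRT18. One of them, KRT8P12, had 2 probe sets of its own, which went from 432 to 514 and from 751 to 531 and so disagreed in direction. How much such copies add to the KRT8 and KRT18 signals was not tested.

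KRT19 is a type I keratin with almost no tail domain, common in ducts and gut. Its brighter probe set read 22867 with siLuc and 23193 with siIFITM1, a log2 ratio of 0.02. The other probe set read 621 and 611, a ratio of -0.02. Neither carries an ID ending for shared probes, and the ratios differed by less than the SD of 0.193.

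KRT20 marks differentiated cells of the gut lining and is widely used to recognise colorectal tumours. Its single probe set, without shared probes, read 17466 with siLuc and 22374 with siIFITM1. This was 1.28-fold higher, a log2 ratio of 0.36 or 1.85 times the SD between brighter probe sets of the same gene. Among brighter genes 7.49% had a ratio at or above that of KRT20. The spread of ratios narrowed as signals grew, so the ratio was also read beside the 726 gene-named probe sets with a mean signal of at least 10000. Their median log2 ratio was -0.05 with an SD of 0.128. Of these probe sets 3 (0.413%) were at or above the KRT20 ratio, counting KRT20 itself. The others were a probe set of SFN, a 14-3-3 protein of epithelial cells (0.48), and the probe set of the annexin gene ANXA3 (0.36), both named after their values were seen. In the same band 46.7% of probe sets were at or above KRT8, 46.4% at or above KRT18 and 30.2% at or above KRT19. This signal band was chosen after the data were seen.

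**Figure D2:**
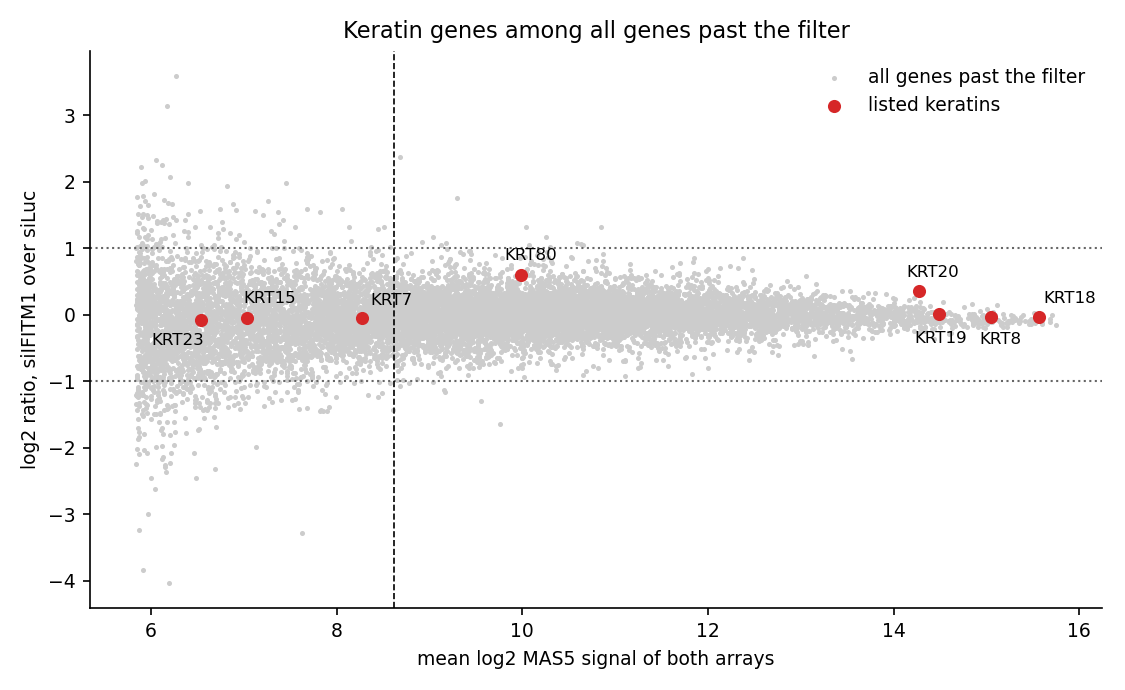
Log2 ratio of siIFITM1 over siLuc against the mean log2 MAS5 signal of both arrays, for all 12225 genes past the filter (grey) and the 8 keratin genes (red), with dotted lines at 2-fold and a dashed line where the brighter class begins. The cloud narrows to the right, and KRT20, at 0.36, sits at its upper edge there, while KRT8, KRT18 and KRT19 lie inside it.

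KRT80 is a type II keratin found in many epithelia, near the cell margins and desmosomes. Its signal was 824 with siLuc and 1249 with siIFITM1, from 1 probe set without shared probes. The siIFITM1 signal was 1.52-fold the baseline, a log2 ratio of 0.60 and 3.11 times the SD between brighter probe sets of the same gene. KRT80 alone of the 8 genes was past a 1.5-fold line. That line was passed by 11.5% of all genes past the filter and 3.63% of the brighter ones, with 1.86% of brighter genes past it on the higher side. No second probe set named KRT80 alone, so its ratio has no check within the arrays.

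KRT7, the type II keratin of ducts and glands that most colorectal tumours lack, gave readings that disagreed. The brightest probe set read 314 with siLuc and 305 with siIFITM1, a log2 ratio of -0.04. The next read 149 and 186, a ratio of 0.32. The third read 88.9 and 42.8, a ratio of -1.06. The dimmest went from 49.5 to 6.72 and failed the filter. All 4 probe sets were below the brighter class. Signals of the 2 brightest moved less than the SD of 0.496 for dimmer probe sets, and the 2 lower ones each had a siIFITM1 signal under the filter level. The third was past the 2-fold line, as were 3.41% of the gene-named probe sets past the filter. The mean over the 4 probe sets was -0.91, while the gene's representative stayed at -0.04, so the KRT7 ratio depends on the probe set. The probe set without shared probes was the one at 0.32.

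KRT23 and KRT15 were dim on both arrays. KRT23, a type I keratin that histone deacetylase inhibitors can switch on, read 95.9 with siLuc and 90.7 with siIFITM1, a log2 ratio of -0.08. KRT15, a keratin of basal keratinocytes and hair follicle stem cells, read 133 with siLuc and 129 with siIFITM1, a ratio of -0.04. Both ratios were less than the SD of 0.496 for dimmer probe sets. Among dimmer genes 86.3% had a ratio at least as far from 0 as KRT23 and 92.1% at least as far as KRT15.

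Keratin genes sit in a type II cluster on chromosome 12 and a type I cluster on chromosome 17. KRT18, although of type I, is in the type II cluster beside KRT8. Neighbours did not always share a ratio. KRT80 (0.60) and KRT7 (-0.04) are adjacent among protein-coding genes, as are KRT20 (0.36) and KRT23 (-0.08). On its other side KRT20 has KRT12, a keratin of the cornea, which went from 73.1 to 14.1 and failed the filter. KRT15 (-0.04) lies between KRT13, a keratin of wet squamous linings (from 307 to 421, a log2 ratio of 0.45), and KRT19 (0.02). The KRT13 ratio was below the SD of 0.496 for dimmer probe sets. Beyond KRT19 lies KRT9, a keratin of palm and sole skin, at 89.1 and 52.9. The neighbours were named for their place, not for their ratios.

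Most other keratins gave little signal. Of 36 further keratin genes with a probe set, 29 were below the filter. The 7 that passed ran from -1.40 to 0.45, 2 above 0 and 5 below, beside 47.4% above 0 among all genes past the filter. Their median was -0.21, beside -0.02 over all genes past the filter and -0.09 over dimmer genes. KRT10, a keratin of the upper layers of skin, was the only brighter gene of the 7. Its 3 probe sets read 4447 and 3846 (ratio -0.21), 3741 and 3774 (0.01), and 3769 and 3486 (-0.11), so its ratio was about the SD of 0.193 at the brightest probe set and closer to 0 at the others. KRT3, a corneal keratin, was the single gene of the 7 past the 2-fold line, where 3.03% of all genes past the filter were. KRT3 was a dimmer gene, and among dimmer genes 7.87% were 2-fold apart and 5.39% were 2-fold lower. It went from 100.02 to 37.9, the latter under the filter level, and had a ratio of -1.40. With a pseudocount of 32 no other keratin was 2-fold apart. The classical squamous basal keratins KRT5 (32.1 and 17.6) and KRT14 (3.02 and 3.77) were below the filter on both arrays, and KRT16, a keratin of wounded and hyperproliferative skin, went from 3.49 to 42.9 and also failed it. KRT16 was named after its values were seen.

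Keratin filaments are anchored at desmosomes and hemidesmosomes by linker proteins. The list of 26 genes read here was broader than such linkers. It also held the integrin subunits ITGA6 and ITGB4 and genes such as FAM83H and FILIP1L, named for the makeup of the list. Of the 26, 25 were measured and 19 passed the filter. Of these 19, 14 (73.7%) were above 0 and 5 below, beside 47.4% above 0 among all genes past the filter. Of the 19, 17 were brighter genes, and 13 of these (76.5%) were above 0, beside 50.5% of all brighter genes. The median was 0.09 over the 19 and over the 17, beside -0.02 over all genes and 0.0031 over brighter genes. The median over the 19 lay between 0.08 and 0.12 under the other scalings. None of the 19 was 2-fold apart, where 3.03% of all genes past the filter and 0.269% of brighter genes were. EPPK1, the cytolinker epiplakin, went from 1984 to 2705 (0.45), and its other brighter probe sets were at 0.54 and 0.44. A dimmer EPPK1 probe set was at -0.70, from 78.3 to 48.1. DSC2, a desmosomal cadherin, went from 2668 to 3486 (0.39), with 3 more probe sets from 0.07 to 0.21. JUP, the plaque protein plakoglobin that binds desmosomal cadherins, went from 3841 to 4938 (0.36). PERP, a membrane protein of desmosomes, went from 12745 to 15958 (0.32), and its other probe sets past the filter were at 0.30 and 0.38. Each of these 4 ratios was larger than the SD of 0.193. The 4 were named for the largest absolute ratios among brighter members, so this partly follows from the choice. Ratios of all brighter genes had an SD of 0.263. DSP, or desmoplakin, which ties keratins to the desmosome, was at 0.05 and PLEC, or plectin, at 0.25. Among the genes of this list past the filter, the lowest ratio was that of DSG2, a desmosomal cadherin, at -0.08. A second brighter DSG2 probe set was at 0.11. DSP, PLEC and DSG2 were named after their values were seen.

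**Figure D3:**
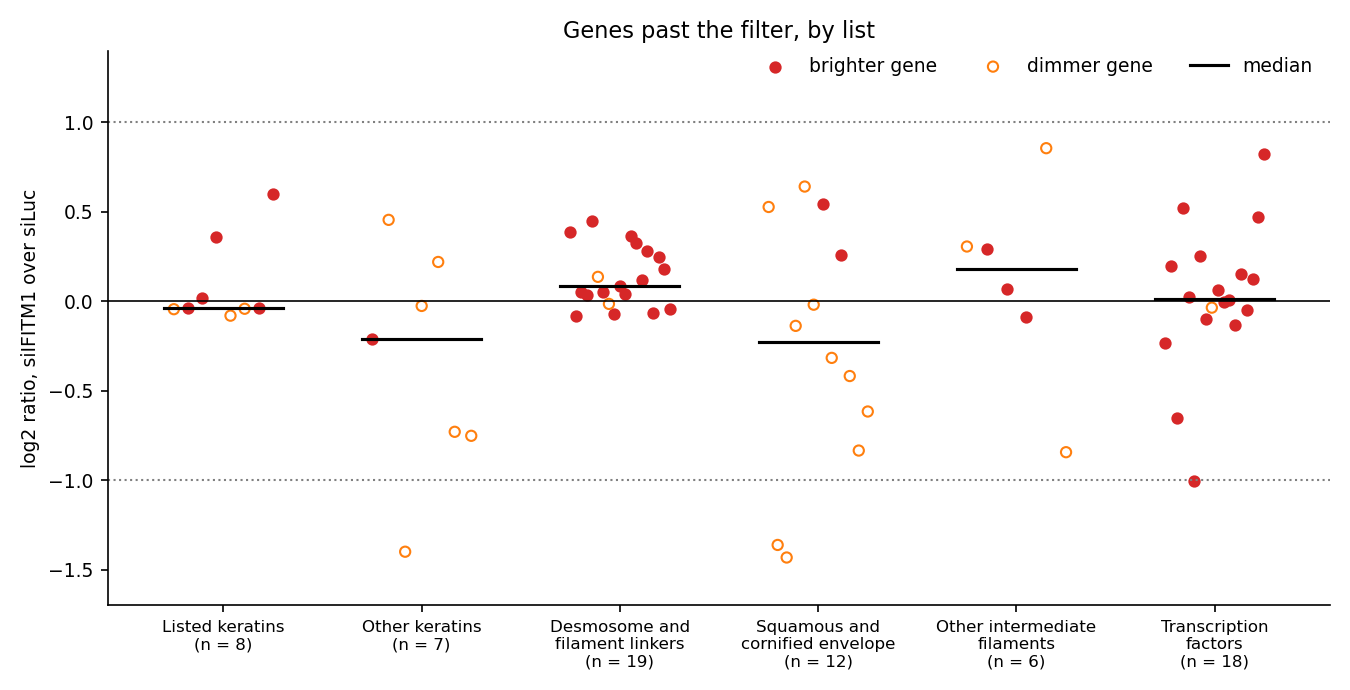
Log2 ratio of siIFITM1 over siLuc for genes past the filter in 6 lists, 1 point per gene, filled for brighter and open for dimmer genes, with the list median as a black bar, dotted lines at 2-fold, and the number of genes under each name. The linker list has 14 of 19 genes above 0. The squamous list and the other keratins have medians of -0.23 and -0.21, and most of their points are dimmer genes. The median over all dimmer genes was -0.09.

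Genes of squamous differentiation and the cornified envelope were mostly dim. Of 28 measured, 12 passed the filter, 4 above 0 and 8 below, beside 47.4% above 0 among all genes past the filter. The median over these 12, of which 2 were brighter genes, was -0.23. It was -0.02 over all genes past the filter and -0.09 over all dimmer genes. The list's median was -0.14 after quantile normalization, -0.15 after removal of a loess trend and -0.19 after median centring. With a pseudocount of 32 it was -0.10, over the 11 genes that then passed the filter. The only brighter members were SFN, from 17487 to 20890 (0.26), with other probe sets at 0.12 and 0.48, and PI3, the elastase inhibitor elafin, from 2904 to 4235 (0.54) with a second probe set at 0.61. CNFN, or cornifelin, went from 116 to 45.03, and CSTA, or cystatin A, from 116 to 43.01. These were the 2 members past the 2-fold line and both had siIFITM1 signals under the filter level. Among dimmer genes generally, 7.87% were 2-fold apart and 5.39% were 2-fold lower.

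Other intermediate filament genes had 6 of 15 members past the filter, with 4 above 0 and a median of 0.18. Among all genes past the filter 47.4% were above 0, with a median of -0.02. None of the 6 was 2-fold apart, where 3.03% of all genes past the filter were. The brighter ones were the nuclear lamins. LMNA was at 0.29 (from 4821 to 5911), but its 3 other brighter probe sets were at -0.05, -0.25 and -0.29. Its dimmer probe sets were at 0.47 and 0.46. LMNB1 was at 0.07 and LMNB2 at -0.09.

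The list of transcription factors that act on keratin genes in intestinal or squamous epithelium had no common direction. Its counts include ESRP1 (0.20), a splicing regulator and not a transcription factor, named for the makeup of the list. Of 20 measured, 18 passed the filter, 10 above 0 and 8 below, with a median of 0.01. Among all genes past the filter 47.4% were above 0, with a median of -0.02. FOXA2, an endoderm factor, was the only one 2-fold apart, where 3.03% of all genes past the filter and 0.269% of brighter genes were. It went from 743 to 370 (-1.01), and its other probe sets were at -0.58 and -1.23. ETS2 went from 5009 to 3183 (-0.65), with a second brighter probe set at -0.76 and a dimmer one at 0.09. TFAP2C, an AP-2 factor of epidermis and placenta, went from 296 to 525 (0.82). FOSL1, an AP-1 subunit, went from 497 to 713 (0.52). CDX2, an intestinal factor that can act on KRT20, read 5.87 and 19.1 at its brighter probe set and failed the filter, and CDX1 read 35.6 and 37.9. GRHL2 and KLF5, factors of epithelial identity, were at -0.10 and -0.14, within the SD of 0.193, and were named after their values were seen. Whether any of these factors bears on the keratin signals was not tested.

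**Figure D4:**
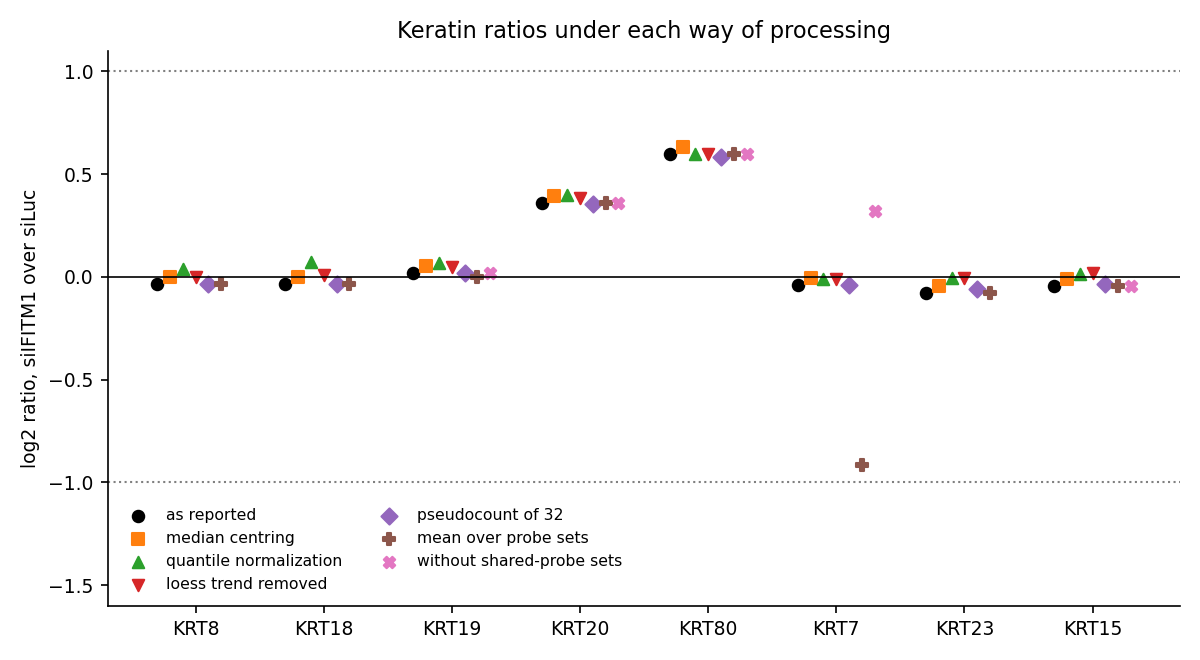
Log2 ratio of siIFITM1 over siLuc for the 8 keratin genes as reported (black circle) and under up to 6 other ways of processing, 1 symbol each, with dotted lines at 2-fold. KRT80 stays between 0.58 and 0.63 and KRT20 between 0.36 and 0.40, while KRT7 moves from -0.91 to 0.32 with the choice of probe sets.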

How the data were processed

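Per the submitters' processing notes, the authors used MAS5 to obtain 1 value per probe set (version not stated). The deposited values are linear intensities, and their mean after trimming 2% at each end was 500.1 on both arrays. The probe table named 1 gene for 41091 of 54613 probe sets that are not controls, and current symbols came from a RefSeq table of GRCh38.p14, joined on the Entrez identifier (99.9% matched). Signals were taken to log2 with no further scaling. The number of arrays limits the precision. Detection calls were not used here. Genes were named as all members, the other keratins that were brighter or 2-fold apart, and from each list up to 4 brighter members with the largest absolute ratio plus any 2-fold apart. Cell type markers (KRT5, KRT14, CDX1 and CDX2 among them) and genomic neighbours of members were also named, outside that rule. Other exceptions are marked where they occur. The keratins and gene lists were chosen with earlier results of these data known. Shares of genes past a fold line were the background. On simulated arrays with 1 probe set per gene, the log2 ratio calculation returned the ratios put in. This follows from the arithmetic and does not check the choice of probe set, the filter or the scalings. The software was Python 3.11.15, with statsmodels 0.14.6 for the loess trend, pandas 2.3.3, numpy 2.4.6 and matplotlib 3.10.9.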

Additional observations from a re-analysis of the deposited data

How the results depend on the processing

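Median centring, quantile normalization, removal of a loess trend (span 0.3), a pseudocount of 32, averaging of each gene's probe sets, omission of shared-probe sets, no filter and a 75th percentile filter all left 0 of the listed keratins 2-fold apart, and a 1.5-fold line gave 1, KRT80. The median over the listed keratins ran from -0.04 to 0.05 under these alternatives, except that omitting shared-probe sets left 5 genes with a median of 0.32. Averaged over its probe sets, KRT7 was at -0.91. The count of other keratins 2-fold apart, 1 as reported, was 0 with the pseudocount and 0 with the 75th percentile filter (1 gene left). At 1.5-fold it was 3 of 7, where 11.5% of all genes past the filter were. These 3 were dimmer genes, and the share over dimmer genes was not computed at that line. With no filter the count of other keratins 2-fold apart was 11 of 36, and the share over all genes was not computed there. Among genes below the filter, 45.9% had a ratio at least as far from 0 as KRT84 (1.04), named after its values were seen. KRT8, KRT15, KRT18 and KRT19 changed sign under at least 1 alternative, each within 0.08 of 0, and KRT7 did so at 0.32 without shared-probe sets. No paired analysis was possible because each siRNA has 1 array. Leaving out an array leaves no comparison.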
